A study of Mus musculus with 4 samples.

Results

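Genes of the cell cycle were examined in splenic Esam DC, grouped by the phase in which their products are best known to act. The 54 genes were taken as a list of 14 G1 genes, 17 S phase genes and 23 genes of mitosis. A gene was measured if a probe set carrying its symbol alone reached a log2 value of 6.5 on at least 1 array, and the brightest such probe set stood for the gene. This gave 52 of the 54 genes (13 of G1, 17 of S phase, 22 of mitosis) among the 9894 genes measured in this way. The inhibitor gene Cdkn1a was only on a probe set that also carries another symbol, the mitotic cyclin gene Ccnb1 had no probe set of its own, and neither was given a value.

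RNA of 4 mice aged 6 weeks was hybridised to 4 Affymetrix arrays, 1 per mouse. The cKO mice (n = 2, genotype label DCRunx3 -/-) carried 2 floxed Runx3 alleles and a Cre transgene driven by CD11c, and the wt mice (n = 2, DCRunx3 +/+) were their littermates, 1 cKO and 1 wt mouse in each of 2 litters. CD11c is expressed by DC in general and by some other myeloid cells, so Cre was not limited to the sorted population. The DC had been enriched on magnetic columns and sorted by FACS as Esam cells positive for CD11c and MHC class II, with CD4 and CD8 in the gate, and they were not cultured. All values below are log2 values from RMA, the array summary that the authors deposited, and differences are cKO minus wt, so that a negative one means a lower level in cKO.

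Cells enter the cycle when D-type cyclins with their kinases Cdk4 and Cdk6, and then cyclin E with Cdk2, phosphorylate the Rb protein and release E2F transcription factors. E2F factors switch on genes for DNA replication in S phase, whereas genes needed later for chromosome segregation are held down in resting cells by the DREAM complex and switched on by B-Myb and FoxM1. Splenic cDC are short-lived cells with a low but steady rate of division in the spleen.

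Several facts about the 4 arrays touched the values that follow. The labels call all 4 mice male, but cKO 1 and wt 1 (litter 1) had Xist at 12.78 and 12.75 and the Y-linked gene Kdm5d at 5.19 and 5.27, whereas cKO 2 and wt 2 (litter 2) had Xist at 5.19 and 5.15 and Kdm5d at 9.89 and 9.84. The split ran by litter and not by genotype, so that leaving out litter 1 leaves the values of pair 2. The Runx3 probe set was at 11.47 and 11.45 in cKO, against 11.37 and 11.51 in wt. Neither the labels nor the methods say whether it covers the floxed part, and the genotype labels were not checked with it. The 12 marker genes of Esam DC were all measured, 7 higher and 5 lower in cKO, with linear sums of 62970 and 63050 in cKO and of 59600 and 58980 in wt. They went both ways: the CD11b gene Itgam differed by 0.75 and met the study's thresholds, while the transcription factor genes Zbtb46 and Irf4 differed by -0.28 and -0.26, both without overlap of the groups. Array medians lay between 6.58 and 6.62, and the 2 wt arrays differed more from each other (median absolute difference 0.163) than the 2 cKO arrays did (0.096).

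The phase groups differed in the letters of their promoters. In the 250 bases before each RefSeq transcription start (build GRCm38.p6), 3 kinds of word were searched on both strands: CCAAT, the word of the trimeric factor NF-Y; TTTGAA, the core of the cell cycle homology region (CHR) that DREAM binds; and the E2F words TTTGGCGC, TTTCGCGC, TTTCCCGC and TTTGCCGC. The 3 kinds of word can share no more than an end base, but some E2F words overlap each other on opposite strands. Of the 54 genes 43 had an entry, and several had more than 1 start. CCAAT stood in 5 of 14 windows of G1 genes (35.7%), 11 of 15 of S phase genes (73.3%) and 16 of 20 of mitosis genes (80%), against 33.8% of all 32851 windows. The CHR word stood in 1 G1 window, 1 S phase window and 7 mitosis windows (35%), against 16% of all windows, and each of those 7 also held CCAAT, a pair found in 5.55% of all windows. An E2F word stood in 1 G1 window, 5 S phase windows (33.3%) and 1 mitosis window, against 1.86% of all windows. A match describes the letters only, and binding was not measured here.

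**Figure D1:**
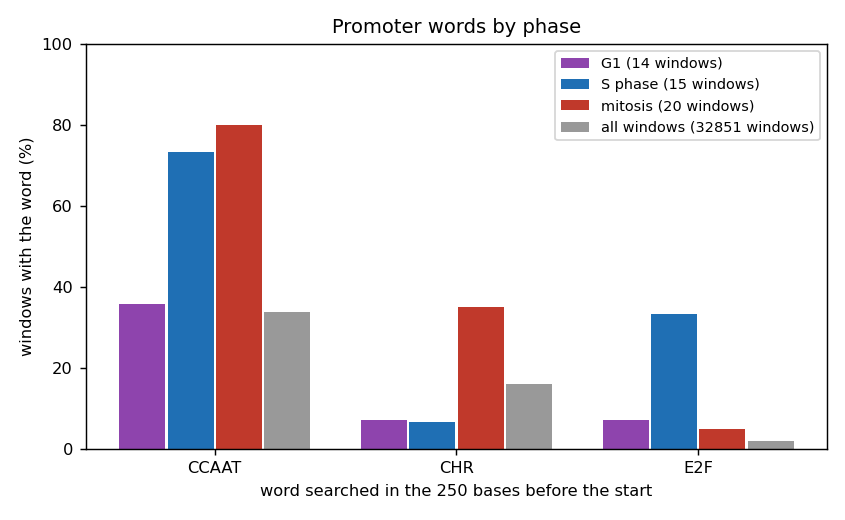
Percent of windows (y axis) of 250 bases before the start that hold each word (x axis), for G1, S phase and mitosis genes and for all 32851 windows. CCAAT is in 73.3% of S phase and 80% of mitosis windows against 33.8% of all, the CHR word in 35% of mitosis windows and E2F words in 33.3% of S phase windows.

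The following 3 stretches are shown because they hold E2F words (in capitals, as is CCAAT or its reverse complement ATTGG) of S phase genes described below. A window of Mcm7 and one of Rfc3, not shown, also hold an E2F word. Mcm6 is read from chr1:128359706-128359825 (minus strand), Mcm5 from chr8:75109346-75109501 (plus strand) and Cdc6 from chr11:98908003-98908030 (plus strand).
Mcm6: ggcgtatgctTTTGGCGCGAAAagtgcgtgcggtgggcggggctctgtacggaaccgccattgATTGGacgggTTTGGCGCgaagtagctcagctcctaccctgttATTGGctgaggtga
Mcm5: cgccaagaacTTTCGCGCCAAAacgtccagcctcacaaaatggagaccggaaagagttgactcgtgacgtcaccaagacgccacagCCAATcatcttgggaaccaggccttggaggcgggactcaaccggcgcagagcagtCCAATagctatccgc
Cdc6: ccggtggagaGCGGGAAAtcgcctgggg

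The next 5 stretches are shown because they hold the CHR word (TTTGAA or its reverse complement TTCAAA) beside CCAAT (or ATTGG), all in capitals, in mitosis genes. The CHR word began 18 bases before the start in Cdc20, 19 in Kif11 and 30 in Prc1, while the Mki67 and Cdk1 stretches hold the word at more than 1 place. Cdc20 is read from chr4:118437344-118437406 (minus strand), Kif11 from chr19:37376327-37376378 (plus strand), Prc1 from chr7:80294404-80294461 (plus strand), Mki67 from chr7:135716462-135716577 (minus strand) and Cdk1 from chr10:69352913-69353130 (minus strand). The Cdk1 stretch also holds an E2F word.
Cdc20: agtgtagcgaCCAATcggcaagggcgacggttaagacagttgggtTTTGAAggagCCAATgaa
Kif11: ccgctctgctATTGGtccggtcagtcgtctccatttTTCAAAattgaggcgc
Prc1: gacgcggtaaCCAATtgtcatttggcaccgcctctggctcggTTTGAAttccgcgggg
Mki67: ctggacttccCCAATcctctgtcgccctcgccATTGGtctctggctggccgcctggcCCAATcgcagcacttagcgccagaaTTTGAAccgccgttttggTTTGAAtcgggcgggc
Cdk1: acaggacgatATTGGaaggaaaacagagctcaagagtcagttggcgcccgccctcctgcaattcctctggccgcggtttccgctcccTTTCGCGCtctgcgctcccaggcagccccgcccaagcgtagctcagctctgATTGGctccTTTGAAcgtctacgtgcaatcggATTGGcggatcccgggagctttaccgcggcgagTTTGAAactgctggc

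Most cell cycle genes were lower in cKO than in wt, by small amounts, and none passed a test adjusted over all probe sets. Of the 52 genes 47 were lower in cKO and 5 higher, with a median difference of -0.18, whereas 55.1% of the 18889 probe sets tested were lower, with a median of -0.02. In both littermate pairs 38 genes were lower (33.8% of all probe sets were) and 3 were higher (23.8%), and the 11 others went in opposite directions. Both cKO arrays lay below both wt arrays for 21 genes (40.4%, against 23.7% of all probe sets) and above them for 3 (16.4% of all probe sets). At an unadjusted p under 0.05 (limma) 8 genes were lower and 2 higher, against 4.81% and 4.57% of all probe sets. No gene of the 52 reached an adjusted p under 0.05 (limma, 0% of all probe sets), and none met the study's own thresholds of a 1.5-fold difference with a p from a one-way test, before any adjustment, no larger than 0.05, which 1.41% of probe sets met. With the adjustment made over 1 probe set per gene, where 0.424% of genes passed, 0 of the 52 did.

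The median was -0.11 for the 13 G1 genes, -0.24 for the 17 S phase genes and -0.17 for the 22 mitosis genes. Every group was lower in both pairs, at -0.15 in pair 1 and -0.05 in pair 2 for G1, -0.30 and -0.14 for S phase, and -0.21 and -0.11 for mitosis, where all probe sets had -0.05 and 0.01. These medians rested in part on 1 array: without wt 1 they were -0.035, -0.10 and -0.027, and without cKO 2 they were -0.13, -0.19 and -0.048 for G1, S phase and mitosis. Without wt 2 they were -0.19, -0.37 and -0.31, and without cKO 1 they were -0.14, -0.28 and -0.28. All 22 mitosis genes were lower in cKO, but 14 were without wt 1 and 17 without cKO 2. In bulk RNA of a sorted population, fewer cycling cells and less transcript per cell cannot be told apart.

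**Figure D2:**
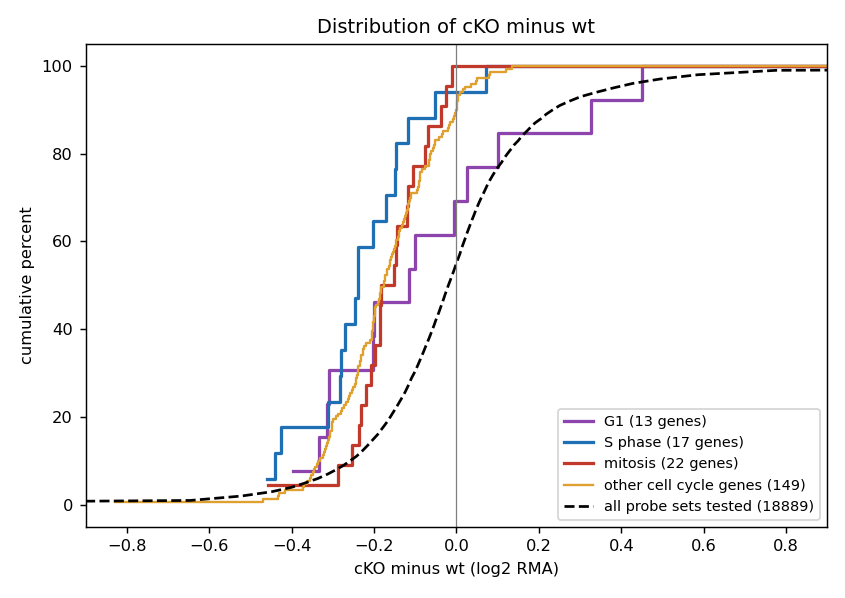
Cumulative percent of genes (y axis) at or below each value of cKO minus wt (x axis, log2 RMA) for the 3 phase groups, for 149 other cell cycle genes and for all 18889 probe sets tested (dashed). The S phase and mitosis curves lie left of the dashed curve, with medians of -0.24 and -0.17 against -0.02, while the G1 curve crosses it.

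**Figure D3:**
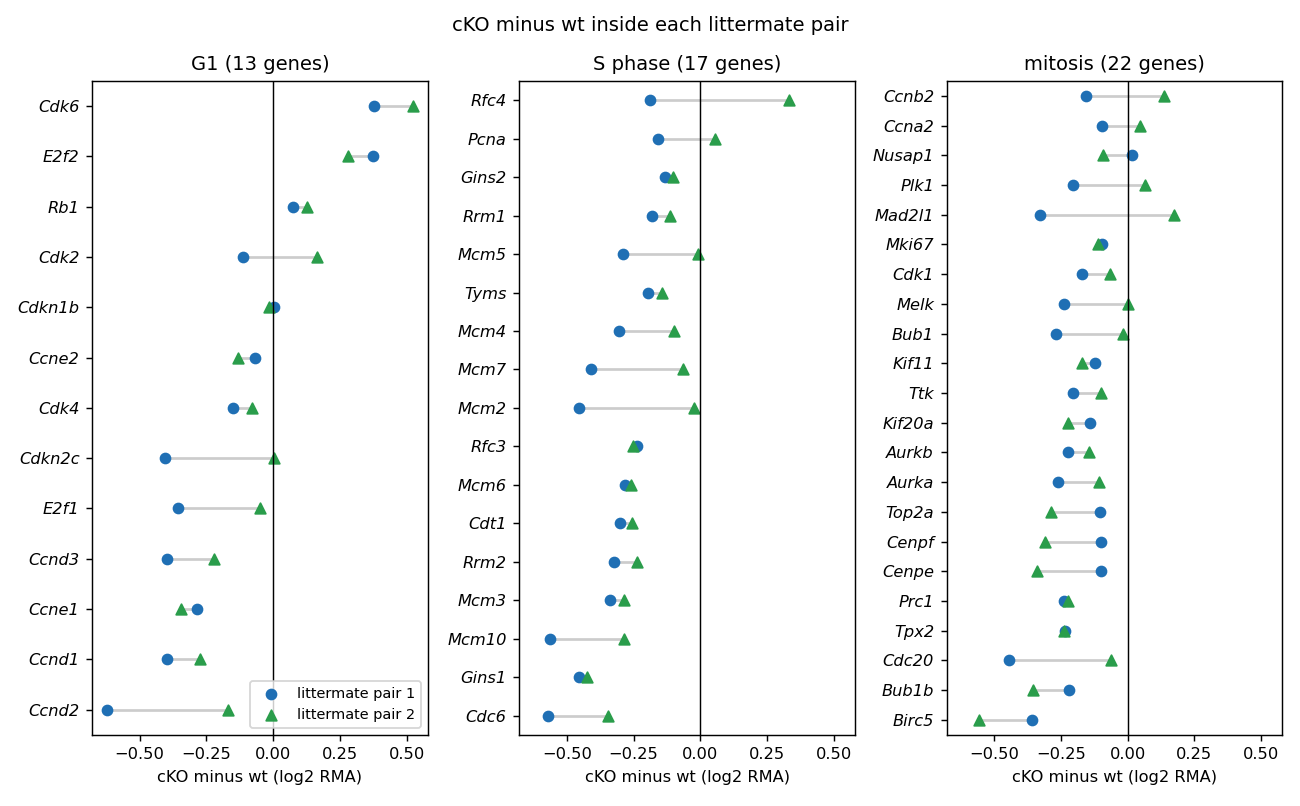
cKO minus wt (x axis, log2 RMA) inside littermate pair 1 (circles) and pair 2 (triangles) for each of 13 G1, 17 S phase and 22 mitosis genes. In S phase 15 genes and in mitosis 16 genes are below 0 in both pairs, while Cdk6, E2f2 and Rb1 of G1 are above 0 in both.

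Of the 13 G1 genes 9 were lower and 4 higher in cKO, and both directions occurred among the kinase genes and among the E2F genes. Ccnd1, which encodes the D-type cyclin that links growth signals to Cdk4 and Cdk6, was at 12.59 and 12.64 in cKO, against 12.99 and 12.92 in wt. Ccnd3, another D-type cyclin gene with a main role in blood cells, was at 10.01 and 10.14 in cKO, against 10.40 and 10.36 in wt. For both genes the 2 cKO arrays lay below the 2 wt arrays. The differences were -0.33 ± 0.09 for Ccnd1 and -0.31 ± 0.09 for Ccnd3 (limma SE, n = 2 per group), or 0.793 and 0.807 times the wt level, with adjusted p of 0.416 and 0.471 (limma). Ccnd2 was at 10.87 and 10.54 in cKO, against 11.49 and 10.71 in wt. Here wt 1 stood far above the other arrays and the groups overlapped, so that the difference of -0.40 had an SE of 0.30 and was -0.0059 without wt 1.

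Cyclin E partners Cdk2 at the entry to S phase. Ccne1 was at 8.49 and 8.44 in cKO, against 8.78 and 8.79 in wt, with no overlap, and the difference of -0.31 ± 0.08 was alike in pair 1 (-0.29) and pair 2 (-0.34), with an adjusted p of 0.417 (limma). Its sister gene Ccne2 was at 9.04 and 9.11 in cKO, against 9.11 and 9.24 in wt, and cKO 2 was level with wt 1. The kinase gene Cdk6 was at 10.03 and 9.92 in cKO, against 9.66 and 9.40 in wt, both cKO arrays above both wt arrays, a difference of 0.45 ± 0.13 or 1.37 times the wt level (limma, unadjusted p = 0.0216, adjusted p = 0.441). Cdk4, which acts with the same cyclins, was at 11.98 and 11.90 in cKO, against 12.13 and 11.97 in wt, with overlapping groups and a difference of -0.11. Cdk2 was at 10.72 and 10.69 in cKO, against 10.83 and 10.53 in wt, so the cKO values lay between the wt values.

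The E2F genes also went apart. E2f2, an activating E2F, was at 9.13 and 9.05 in cKO, against 8.75 and 8.77 in wt, which gave 0.33 ± 0.09 with similar values in pair 1 (0.37) and pair 2 (0.28) and an adjusted p of 0.417 (limma). E2f1, the best known activator of S phase genes, was at 8.92 and 8.97 in cKO, against 9.27 and 9.02 in wt. The E2f1 groups did not overlap, but pair 1 differed by -0.36 and pair 2 by -0.05. Rb1, which encodes the brake that holds E2F, was at 11.98 and 12.02 in cKO, against 11.91 and 11.89 in wt, a small difference of 0.10 ± 0.08 without overlap. Of the inhibitor genes, Cdkn2c (p18), which blocks Cdk4 and Cdk6, was at 8.66 and 8.78 in cKO, against 9.06 and 8.77 in wt, where wt 1 alone stood out. Cdkn1b (p27), which blocks cyclin E with Cdk2, differed by -0.0063, and a second, dimmer probe set by -0.14.

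**Figure D4:**
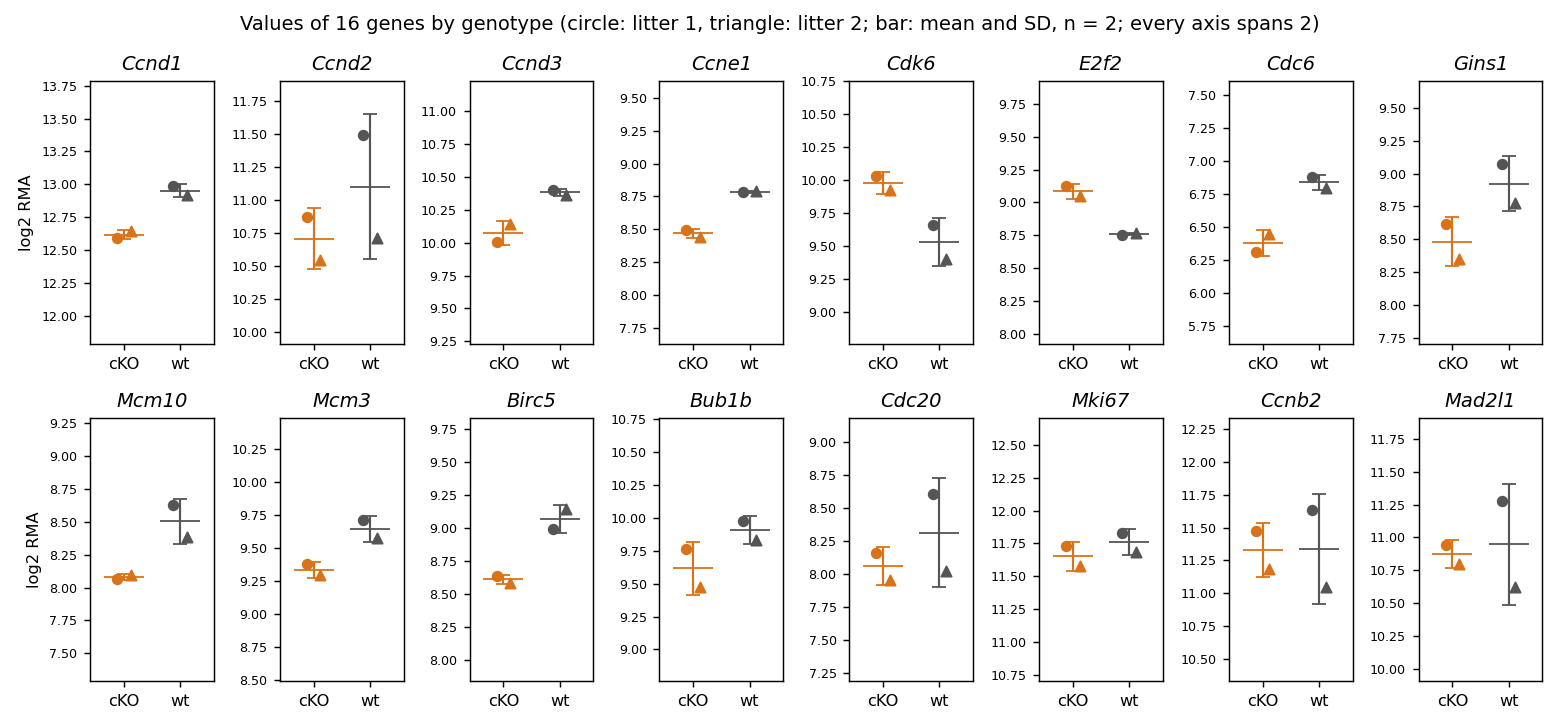
Log2 RMA values (y axis, each spanning 2 units) of 16 named genes in cKO and wt (x axis). Circles are litter 1, triangles litter 2, and bars the mean and SD of 2 arrays. Ccnd1, Ccnd3, Ccne1, Cdc6 and Birc5 are lower in both cKO arrays than in both wt arrays and Cdk6 and E2f2 higher, while Ccnb2 and Mad2l1 overlap with wt 1 highest.

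In S phase 16 of 17 genes were lower in cKO, 15 of them in both pairs, and 11 without overlap of the groups (64.7%, against 23.7% of all probe sets). At an unadjusted p under 0.05 (limma) there were 4, all lower (23.5%, against 4.81% of all probe sets). That count moved when 1 array was left out, as did the count over all probe sets. With the litter as a block there were 7, where 5.43% of all probe sets were lower at that limit. The methods' one-way test left 1 S phase gene, Cdc6, where 928 of the 18889 probe sets were lower at that limit. The larger share of S phase genes thus held for limma and was not seen with the one-way test. Cdc6, which loads the helicase with Cdt1, was at 6.31 and 6.45 in cKO, against 6.88 and 6.80 in wt. It differed by -0.46 ± 0.10, or 0.728 times the wt level, in the same direction in pair 1 (-0.57) and pair 2 (-0.35), with an unadjusted p of 0.00844 and an adjusted p of 0.348 (limma). Both cKO values lay under the limit of 6.5, so Cdc6 was counted as measured through its wt values and its difference had to be in that direction. Without it, 15 of 16 S phase genes were lower, with a median of -0.24, and 3 had an unadjusted p under 0.05 (limma). The 11 S phase genes without overlap also include Cdc6. Next to Cdc6 stood Ttk, with a highest value of 7.88 and a lowest of 7.41, and no gene with a probe set of its own stayed below 6.5 on all arrays.

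Gins1, a subunit of the GINS complex that turns the loaded helicase on, was at 8.62 and 8.35 in cKO, against 9.07 and 8.78 in wt. Mcm10, which acts at the same step, was at 8.06 and 8.09 in cKO, against 8.62 and 8.38 in wt. Both genes had their cKO arrays below their wt arrays, with differences of -0.44 ± 0.16 and -0.42 ± 0.12 and adjusted p of 0.525 and 0.438 (limma). Cdt1 was at 8.33 and 8.19 in cKO, against 8.63 and 8.44 in wt, again without overlap. Gins2, a partner of Gins1, was at 8.15 and 7.98 in cKO, against 8.28 and 8.09 in wt, with overlap. The median over these 4 genes of origin loading and firing was -0.35, at -0.38 in pair 1 and -0.27 in pair 2.

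The genes Mcm2, Mcm3, Mcm4, Mcm5, Mcm6 and Mcm7 encode the 6 subunits of the replicative helicase, and all 6 were lower in cKO in both pairs, between -0.31 (Mcm3) and -0.15 (Mcm5). Their median was -0.24, but -0.32 in pair 1 and -0.08 in pair 2. Mcm3 was at 9.38 and 9.29 in cKO, against 9.72 and 9.58 in wt, and Mcm6 at 10.26 and 10.10 in cKO, against 10.54 and 10.36 in wt. These were the subunits with like differences in both pairs (Mcm3 -0.34 and -0.28, Mcm6 -0.28 and -0.26). Mcm2 was at 9.85 and 9.77 in cKO, against 10.31 and 9.79 in wt, and without wt 1 its difference turned to 0.018. The Mcm4 and Mcm7 groups did not overlap (-0.20 and -0.24) but pair 2 differed by -0.10 and -0.06. Mcm5 differed by -0.29 in pair 1 and -0.0078 in pair 2.

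Of the genes for the supply of nucleotides, Rrm2, the limiting subunit of ribonucleotide reductase, was at 10.13 and 9.94 in cKO, against 10.45 and 10.18 in wt (-0.28 ± 0.14, limma adjusted p = 0.645). Its large subunit gene Rrm1, which is less tied to S phase, was at 11.10 and 10.93 in cKO, against 11.28 and 11.05 in wt, with overlap, and the thymidylate synthase gene Tyms differed by -0.17 without overlap. Pcna, the sliding clamp of the polymerases, was at 12.82 and 12.80 in cKO, against 12.97 and 12.74 in wt, with the cKO values between the wt values. A second Pcna probe set was nearly identical to it, and signal of a gene and of a near copy of it cannot be told apart on the array. The loader gene Rfc3 was at 8.45 and 8.26 in cKO, against 8.68 and 8.51 in wt, without overlap, whereas Rfc4 was at 10.32 and 10.17 in cKO, against 10.51 and 9.84 in wt, and differed by -0.19 in pair 1 and 0.33 in pair 2.

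In mitosis the largest difference belonged to Birc5 (survivin), a subunit of the chromosomal passenger complex that corrects the attachment of chromosomes. It was at 8.64 and 8.59 in cKO, against 8.99 and 9.14 in wt. Both cKO arrays lay below both wt arrays, the difference was -0.46 ± 0.10 or 0.728 times the wt level, and pair 2 (-0.56) exceeded pair 1 (-0.36). It was the 1 mitosis gene with an unadjusted p under 0.05 (0.00824), with an adjusted p of 0.343 (limma). That is 4.55% of the mitosis genes, no more than the 4.81% of all probe sets that were lower at that limit. With the litter as a block there were 2 such genes, where 5.43% of all probe sets were lower at that limit. Aurkb, the kinase of the same complex, differed by -0.18 with overlapping groups. Over the 22 mitosis genes 6 did not overlap between the groups (27.3%, against 23.7% of all probe sets), and 16 were lower in both pairs (72.7%, against 33.8%).

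Bub1b, a spindle checkpoint kinase, was at 9.76 and 9.47 in cKO, against 9.98 and 9.83 in wt (-0.29 ± 0.14, limma adjusted p = 0.631). Tpx2, which activates the kinase Aurka at the spindle, was at 9.32 and 9.18 in cKO, against 9.55 and 9.42 in wt. Prc1, which bundles the microtubules of the midzone, was at 8.79 and 8.60 in cKO, against 9.03 and 8.82 in wt. In all 3 genes both cKO arrays lay below both wt arrays, with cKO 1 close under wt 2 for Bub1b and Prc1. Tpx2 (-0.23 and -0.24) and Prc1 (-0.24 and -0.23) gave nearly the same difference in both pairs.

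Cenpe and Cenpf, which act at the kinetochore, overlapped between groups and differed more in pair 2. Cenpe was at 9.21 and 8.84 in cKO, against 9.31 and 9.18 in wt, and Cenpf at 8.51 and 8.09 in cKO, against 8.61 and 8.41 in wt. The spindle checkpoint target Cdc20, an activator of the anaphase-promoting complex, was at 8.16 and 7.96 in cKO, against 8.61 and 8.02 in wt, so that its difference of -0.25 came from wt 1 and was 0.038 without it. Top2a, the topoisomerase that untangles sister chromatids, was at 10.74 and 10.50 in cKO, against 10.84 and 10.79 in wt, a difference of -0.20 without overlap. A second, dimmer Top2a probe set differed by -0.29.

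The widely used proliferation marker Mki67 was at 11.73 and 11.58 in cKO, against 11.83 and 11.69 in wt, with a difference of -0.10 ± 0.11 that was alike in both pairs (-0.10 and -0.11). Litter separated these 4 values by more than genotype did, by 0.15 in cKO and 0.14 in wt. Of the cyclins and the kinase that drive mitosis, Ccnb1 had no value. Ccnb2 (cyclin B2) was at 11.48 and 11.18 in cKO, against 11.63 and 11.04 in wt. Its difference of -0.01 came from pairs that went apart (-0.16 in pair 1 and 0.14 in pair 2). Ccna2 (cyclin A2) differed by -0.03 and the kinase gene Cdk1 by -0.12. Cdk1 was lower in both pairs (-0.17 in pair 1 and -0.07 in pair 2). None of Ccnb2, Ccna2 and Cdk1 was free of overlap. Mad2l1, the checkpoint protein that inhibits Cdc20, was at 10.95 and 10.80 in cKO, against 11.27 and 10.62 in wt, and its pairs differed by -0.33 and 0.17. The 9 other mitosis genes lay between -0.18 and -0.04. They were the kinase genes Aurka, Aurkb and Plk1 of spindle assembly, the kinase gene Melk, the checkpoint kinase genes Bub1 and Ttk, the motor genes Kif11 of the bipolar spindle and Kif20a of cytokinesis, and Nusap1, whose product binds spindle microtubules. Among these 9 genes Bub1 was the one without overlap, at 10.06 and 10.04 in cKO, against 10.33 and 10.06 in wt. The gap was bare, with cKO 1 (10.0575) nearly level with wt 2 (10.0602), and pair 2 differed by -0.017.

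In S phase and mitosis alike wt 1 was the highest and cKO 2 the lowest array by the median, and values differed by litter as well as by genotype. The array wt 1 was the highest of the 4 for 17 of 17 S phase genes, 20 of 22 mitosis genes and 7 of 13 G1 genes, which is 84.6% of the 52 genes against 36.5% of all probe sets. The array cKO 2 was the lowest for 13 S phase and 17 mitosis genes. Litter 1 exceeded litter 2 in both genotypes for 15 S phase genes (88.2%), 21 mitosis genes (95.5%) and 5 G1 genes (38.5%), against 31.9% of all probe sets. The median gap between litters for mitosis genes was 0.20 in cKO and 0.22 in wt, which is larger than the gap between genotypes (-0.17), and for S phase genes it was 0.15 in cKO and 0.23 in wt. Median deviations from each gene's mean were -0.05 and -0.16 in cKO and 0.25 and 0.00 in wt for S phase, and 0.02 and -0.19 in cKO and 0.21 and -0.04 in wt for mitosis. The arrays cKO 1 and wt 2 lay between, with wt 2 above cKO 1 for S phase and below it for mitosis. Sex transcripts, litter and any shared handling of a litter cannot be told apart.

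**Figure D5:**
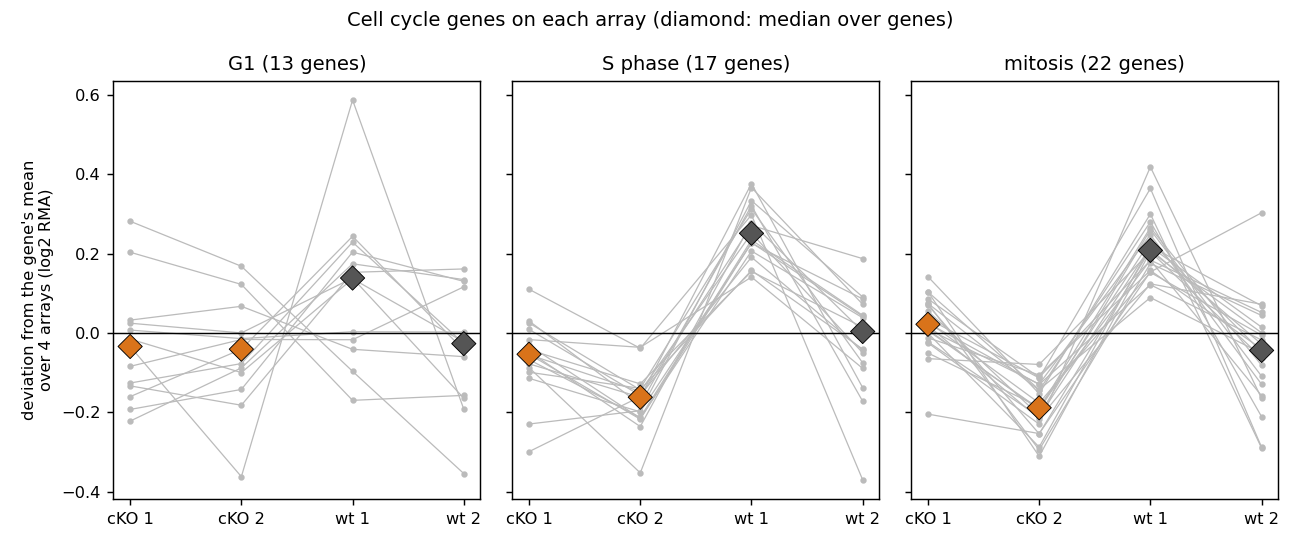
Deviation of each gene from its own mean over 4 arrays (y axis, log2 RMA) on arrays cKO 1, cKO 2, wt 1 and wt 2 (x axis). Grey lines are genes and diamonds the median of the group. In S phase and mitosis wt 1 is highest (medians 0.25 and 0.21) and cKO 2 lowest (-0.16 and -0.19).

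A wider list of cell cycle genes gave similar counts on the same 4 arrays, so it is no independent test. The array wt 1 was the highest for 81.9% of its genes, against 36.5% of all probe sets. The brightest probe set again stood for each gene. Among the genes named from it below, Slbp, E2f3 and Lin52 had 2 probe sets tested and Cks2 had 3. Values of the dimmer ones are not given here. Of 157 further genes 149 were measured, and 134 of these were lower in cKO, 113 in both pairs, with a median of -0.18 (-0.18 in pair 1 and -0.15 in pair 2). The median was -0.093 without wt 1 and -0.098 without cKO 2. Groups did not overlap for 76 lower genes (51%, against 23.7% of all probe sets) and for 1 higher gene. The medians by phase were -0.11 for 24 G1 genes, -0.20 for 44 S phase genes and -0.18 for 81 mitosis genes. At an unadjusted p under 0.05 (limma) 13 were lower (8.72%, against 4.81% of all probe sets) and 0 higher, with 0 at an adjusted p under 0.05. With the litter as a block that count of 13 was 23, where 5.43% of all probe sets were lower at that limit. It also moved when 1 array was left out, as did the count over all probe sets.

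In the S phase list the smallest p belonged to Slbp, which encodes the protein that binds the stem-loop of histone mRNA, at 9.56 and 9.55 in cKO, against 9.90 and 9.94 in wt (-0.36 ± 0.08, limma adjusted p = 0.368). Chaf1a, the large subunit of the factor that places histones on new DNA, was at 8.32 and 8.24 in cKO, against 8.69 and 8.61 in wt, and differed by -0.37 in pair 1 and -0.38 in pair 2. Pola1, the catalytic subunit of the polymerase that primes replication, was at 9.58 and 9.54 in cKO, against 9.85 and 9.91 in wt. In all 3 genes both cKO arrays lay below both wt arrays, and litters differed little, by at most 0.084 (Chaf1a in cKO). Orc5, a subunit of the origin recognition complex, was at 9.30 and 9.28 in cKO, against 9.32 and 9.19 in wt, and turned in direction without wt 2.

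In the mitosis list Lmnb1, which encodes the nuclear lamina protein lamin B1, was at 9.49 and 9.39 in cKO, against 9.76 and 9.99 in wt (-0.43 ± 0.12, limma adjusted p = 0.433). Shcbp1, a protein of the late mitotic midbody, was at 7.67 and 7.40 in cKO, against 8.07 and 7.94 in wt, and the histone gene H2ax at 9.29 and 9.18 in cKO, against 9.51 and 9.67 in wt. All 3 were lower on both cKO arrays. Cks2, which encodes a small subunit bound to Cdk1, was the 1 gene of this list with both cKO arrays above wt, at 10.73 and 10.73 in cKO, against 10.71 and 10.48 in wt, a gap of 0.02 in pair 1.

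In the G1 list Mybl1, which encodes the transcription factor A-Myb, was at 7.93 and 7.99 in cKO, against 8.21 and 8.18 in wt. The activator E2f3 was at 8.46 and 8.30 in cKO, against 8.58 and 8.76 in wt, and the repressor E2f8 at 9.38 and 9.18 in cKO, against 9.54 and 9.53 in wt. E2f3 and E2f8 were thus lower where E2f2 was higher, all 3 without overlap and none past the adjusted threshold. Lin52, a subunit of DREAM, was at 9.23 and 9.05 in cKO, against 9.40 and 8.64 in wt. The inhibitor gene Cdkn2b (p15), named after its values were seen, was at 6.88 and 6.64 in cKO, against 8.34 and 6.84 in wt, where wt 1 alone was high.

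Markers of other cells also differed between the genotypes. All 11 macrophage markers were higher in cKO, with linear sums of 15790 and 17670 in cKO and of 10470 and 13580 in wt, and wt 1, the array with the highest S phase and mitosis values, had the lowest sum. The 9 cDC1 markers (8 higher) summed to 12610 and 13550 in cKO and to 6494 and 5596 in wt, the 5 measured of 7 monocyte markers (5 higher) to 7797 and 8732 in cKO and to 5244 and 5640 in wt, and the 5 of 6 pDC markers (4 higher) to 2128 and 2377 in cKO and to 1363 and 1418 in wt. Dividing cells of other kinds were looked for as well. The 9 markers of granulocyte precursors all lay below 6.5, as did Klf1, Gata1, Epor, Alas2 and Epb42 of erythroid cells, Cd3d, Cd3e and Cd3g of T cells, Pax5 and Ebf1 of B cells and Sdc1 and Tnfrsf17 of plasma cells. The 5 of 8 B cell markers measured (4 higher) summed to 3937 and 3298 in cKO and to 3227 and 2195 in wt, the 3 of 5 plasma cell markers (2 higher) to 2118 and 2542 in cKO and to 1943 and 1904 in wt, the 2 of 11 erythroid markers (2 higher) to 2427 and 1801 in cKO and to 2242 and 1431 in wt, and the 1 of 8 T and NK cell markers, Nkg7, was at 112 and 79.1 in cKO and at 71.3 and 43.5 in wt. Nkg7 reached 6.5 on cKO 1 alone, and Ccr2 (monocyte) and Fcer2a (B cell) on the cKO arrays alone. The limit thus favoured a higher cKO value for Nkg7, and Ccr2 and Fcer2a had to be higher in cKO. Besides the macrophage markers, the monocyte and pDC markers had their lowest sum in wt 1. The cDC1, B cell, plasma cell and erythroid markers and Nkg7 were lowest in wt 2. The part of these cells in the lower values of cell cycle genes was not tested.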

How the data were processed

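RNA of Esam DC from 2 cKO and 2 wt mice was measured, 1 array per mouse. The authors deposited log2 values, summarised in Partek by RMA with a GC correction, and the build named in the submitters' processing notes is mm9. The methods name an exon 1.0 ST array, whereas the platform annotation is that of a gene-level array, so values are called probe sets and none is read as an exon. The labels and the methods name different RNA kits (RNeasy and miRNeasy). All 4 columns matched a sample by name.

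Of 35399 probe sets, 18889 reached 6.5 on at least 1 array and were tested with limma 3.58.1 in R 4.3.3 (lmFit with eBayes, two-sided, Benjamini-Hochberg over all 18889). Standard errors are moderated, from 2 residual degrees of freedom and a prior of 2.2. The study's thresholds were applied beside it. P-values rest on the spread between the 2 mice of a group, pooled in part over probe sets. These 2 mice come from different litters, so differences between litters are part of that spread unless the litter is a block. Having 2 mice per group limits the precision. Procedures were tested on simulated data.

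The labels pair 1 cKO and 1 wt mouse in each litter, and deviations from group means correlated within litters (r = 0.27). The litter as a block, other filters, centring, renewed quantile normalization, 1 probe set per gene, the mean of a gene's probe sets and leaving out each array were alternatives. Named genes were, per phase, the 8 with the largest differences, the brightest 2, up to 4 against the majority and the 2 with the widest gap between pairs, and of each further list the 3 with the smallest p and the 1 largest against the majority. Members and lists were chosen with earlier results of these data known. Older symbols were updated through RefSeq, whose promoter windows were read up to the start.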

Additional observations from a re-analysis of the deposited data

Results flagged for a closer look

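For 11 cell cycle genes the cKO mouse was above its wt littermate in one pair and below it in the other. The difference between the pairs was not tested, since each pair holds 1 mouse per genotype. The values that follow are cKO minus wt in pair 2 minus cKO minus wt in pair 1, in log2.

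In G1 the gaps were Cdk2 0.28 (-0.11 in pair 1 and 0.16 in pair 2), Cdkn1b -0.021 (0.0041 in pair 1 and -0.017 in pair 2) and Cdkn2c 0.41 (-0.40 in pair 1 and 0.0028 in pair 2). In S phase they were Pcna 0.21 (-0.16 in pair 1 and 0.053 in pair 2) and Rfc4 0.52 (-0.19 in pair 1 and 0.33 in pair 2). In mitosis they were Ccna2 0.14 (-0.10 in pair 1 and 0.046 in pair 2), Ccnb2 0.29 (-0.16 in pair 1 and 0.14 in pair 2), Plk1 0.27 (-0.21 in pair 1 and 0.066 in pair 2), Mad2l1 0.50 (-0.33 in pair 1 and 0.17 in pair 2), Nusap1 -0.11 (0.014 in pair 1 and -0.092 in pair 2) and Melk 0.24 (-0.24 in pair 1 and 0.0005 in pair 2). In 9 of the 11 genes pair 1 was the lower, and wt 1 was the highest array for these. Cdkn1b and Nusap1 went the other way.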

How the results depend on the processing

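Arrays without values for background limit what can be said of dim genes such as Cdc6, and 2 mice per genotype limit every test. With the litter as a block (the pairing of the labels) 0 probe sets passed at an adjusted p under 0.05 (limma), as without it. No named gene was therefore called at the adjusted limit either way. The S phase genes at an unadjusted p under 0.05 (limma) became 7 in place of 4, and the mitosis genes 2 in place of 1. The named genes added by the block were Mcm6, Rrm2, Cdt1 and Bub1b. Probe sets past the study's thresholds became 135 in place of 267. Over all probe sets the adjusted count was 1 (Plcb4) with 6.5 on all 4 arrays, 1 (Plcb4) with quantile normalization again, and 42 with 1 probe set per gene, none of them a cell cycle gene. Leaving out each array in turn, the count past the study's thresholds ran between 113 and 281, the S phase median between -0.37 and -0.10, the number of lower mitosis genes between 14 and 22, and the further cell cycle genes past the study's thresholds between 0 and 1 (Timeless, without wt 2). The direction turned with 1 array left out for Cdk2 (range -0.13 to 0.18), Pcna (-0.17 to 0.063), Rfc4 (-0.26 to 0.41), Mcm2 (-0.50 to 0.018), Cdc20 (-0.55 to 0.038), Cenpf (-0.41 to 0.0010), Ccnb2 (-0.31 to 0.28), Mad2l1 (-0.40 to 0.25), Lin52 (-0.26 to 0.50) and Orc5 (-0.035 to 0.10). At an unadjusted p under 0.05 the count over all probe sets was 1771, 2831 with no filter and between 863 and 3248 with 1 array left out. The lower genes at that limit ran between 0 and 5 for G1 (3 on all arrays), between 1 and 9 for S phase (1 by the methods' one-way test) and between 0 and 4 for mitosis. For the further genes they ran between 0 and 36 (13 on all arrays), with 23 under the block, 21 with no filter and 22 with the mean of a gene's probe sets. Leaving out 1 array leaves 1 array in 1 of the genotypes, and the cause of these shifts was not tested. With 1 array left out the median over all probe sets ran from -0.04 to 0.00, and its share of lower values from 49.4% (without wt 1) to 60% (without wt 2).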
